A study of Mus musculus with 5 samples.

Results

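The Hox cluster genes were followed across single mouse cells of 3 kinds. All genes named Hoxa, Hoxb, Hoxc or Hoxd with a paralog number were taken, and a gene without a row on a plate was counted as 0 reads there. Of the 39 Hox cluster genes of the mouse, 26 had at least 1 read somewhere, out of 15597 genes read in all. The other 13, namely Hoxa2, Hoxa4, Hoxa6, Hoxa11, Hoxa13, Hoxb5, Hoxb8, Hoxc11, Hoxc12, Hoxd1, Hoxd3, Hoxd9 and Hoxd11, had no read on any plate.

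The cells were mouse embryonic fibroblasts (MEF), a primary connective tissue culture, Neuro2A, a mouse neuroblastoma line, and ES R1 cells, embryonic stem (ES) cells that the labels describe as spheres. MEF and Neuro2A filled 1 plate each and ES filled 3 plates, called ES replicates 1, 2 and 3, with 96 wells per plate and 1 sorted cell per well. No treatment, genetic change or time point is given, and neither are the embryonic age, the body region and the mouse strain of the fibroblasts. The labels do not say whether the ES plates came from separate cultures, so p-values reflect the spread among those 3 plates alone, which may be technical.

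Hox genes encode transcription factors that bind DNA through a homeodomain, and mammals carry them in 4 clusters. The genes of a cluster are numbered as paralog groups 1 to 13, and their order along the chromosome matches the order in which they act along the head-to-tail axis of the embryo. Low numbers act towards the head and high numbers towards the tail, and the highest numbers also pattern the ends of the limbs and the genital region. Fibroblasts are known to keep the Hox code of the body region they came from, whereas Polycomb proteins keep the clusters silent in undifferentiated ES cells. In the mouse, Hoxa lies on chromosome 6, Hoxb on chromosome 11, Hoxc on chromosome 15 and Hoxd on chromosome 2.

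Wells with at least 1000 reads on genes were kept, which left 92 wells of MEF, 86 of Neuro2A, and 93, 66 and 94 of ES replicates 1, 2 and 3. A kept well held a median of 12749 gene reads in MEF, 26278 in Neuro2A, and 101130, 2520.5 and 17003 in ES replicates 1, 2 and 3. Levels are given as CPM, reads of a gene per 1000000 gene reads, scaled by TMM, an edgeR factor that evens out composition between libraries. They are not scaled to gene length, so they are compared between plates and not between genes. A read carries no molecular identifier and can be a PCR copy, so wells are counted beside reads, and intervals cover counting error only. The labelled cell types had their markers: 18 of 18 fibroblast markers were read in MEF, 14 of 19 neuroblastoma markers in Neuro2A, and 12 of 13 ES markers on each ES plate. ES replicate 3 also had reads of 18 of 18 fibroblast markers, at 6195 CPM summed against 59155 CPM in MEF, and MEF had 13 of 19 neuroblastoma markers, at 296 CPM against 1967 CPM in Neuro2A. Hox reads were therefore also compared by barcode.

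Each well was marked by a 5-base barcode in the helper oligo used for template switching, and the same 96 barcodes served on all 5 plates. The oligo of the well that held most Hoxc9 reads is shown because reads at its barcode recur on other plates. The capitals mark the barcode.
Helper oligo: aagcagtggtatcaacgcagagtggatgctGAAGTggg

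MEF had the highest Hox level and the widest set of Hox genes. MEF had 1459 Hox reads, or 737 CPM, from 18 genes of all 4 clusters. Neuro2A had 296 reads, or 95.3 CPM, from 5 genes. The ES plates had 10, 59 and 158 reads from 3, 10 and 14 genes, or 0.808, 171 and 72.2 CPM in replicates 1, 2 and 3, with a mean of 81.4 ± 85.6 CPM (SD, n = 3). The MEF level therefore lay above each ES plate, whereas the Neuro2A level lay between ES plates.

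The ES background depended on the plate. In ES replicate 1, the deepest plate, 3 reads correspond to 0.242 CPM, and the summed Hox level was 912-fold higher in MEF (counting interval 495 to 1906). In ES replicate 2, the shallowest plate, 3 reads correspond to 8.71 CPM, and MEF was 4.30-fold higher (counting interval 3.32 to 5.68). Against ES replicate 3 the MEF level was 10.2-fold higher (8.65 to 12.1). Neuro2A was 118-fold above ES replicate 1 and at 0.556 times ES replicate 2 (0.419 to 0.749), and at 1.32 times ES replicate 3 (1.08 to 1.61). The Neuro2A order turned round with the scale: with repeats and mitochondrial genes counted in the library it was 2.35 times ES replicate 2, and without the well richest in Hox reads on each plate it was 0.712 times ES replicate 3. MEF against ES replicate 2 was 2.21-fold by library size alone and 19.2-fold with repeats counted.

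**Figure D1:**
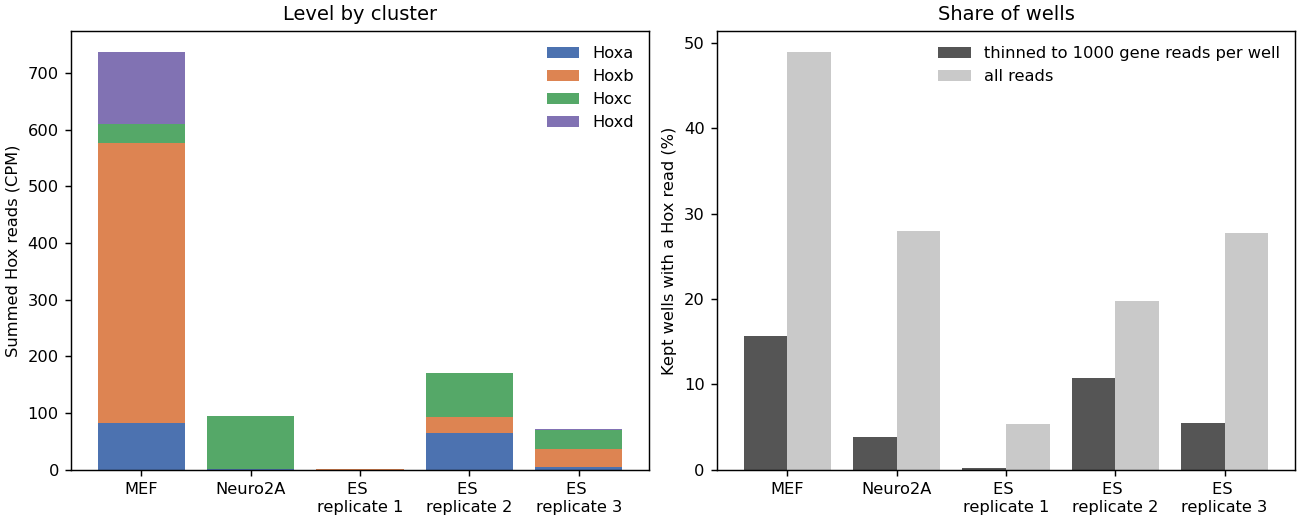
Left, summed Hox level per plate in CPM, stacked by cluster; right, percent of kept wells with at least 1 Hox read, for all reads and for the expected share when every well is thinned to 1000 gene reads. MEF stands at 737 CPM with all 4 clusters, Neuro2A at 95.3 CPM almost wholly of Hoxc, and ES replicates 1, 2 and 3 at 0.808, 171 and 72.2 CPM.

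Hox reads were found in 45 of 92 MEF wells (48.9%, exact binomial interval 38.3 to 59.6%), 24 of 86 Neuro2A wells (27.9%, 18.8 to 38.6%), and 5 of 93, 13 of 66 and 26 of 94 wells of ES replicates 1, 2 and 3 (5.38%, 19.7% and 27.7%). Because deep wells have more chances of a read, every well was also thinned to 1000 gene reads. The expected share of wells with a Hox read was then 15.7% in MEF, 3.83% in Neuro2A, and 0.137%, 10.8% and 5.49% in ES replicates 1, 2 and 3. MEF at 15.7% and ES replicate 2 at 10.8% were thus far closer at equal depth than their CPM. A well that is positive at 1000 reads rests on very few reads, so these shares are not read as an order of expression. At 5000 gene reads the shares were 45.3% of 64 MEF wells, 10.6% of 69 Neuro2A wells, and 0.666% of 90, 46.4% of 10 and 16.1% of 85 ES wells in replicates 1, 2 and 3.

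Wells with Hox reads were the deeper ones. The median MEF well with a Hox read held 37585 gene reads, against 4713 in MEF wells without one, and the medians in Neuro2A were 46978.5 and 19753.5. In ES replicate 1 they were 148204 and 99986, in ES replicate 2 they were 2864 and 2463, and in ES replicate 3 they were 21412.5 and 15877.5. The barcode also moved with detection: barcodes ending in G marked 58.3% of the Neuro2A wells with a Hox read and 27.9% of all kept Neuro2A wells, and 80% against 25.8% in ES replicate 1. In MEF the shares were 37.8% and 26.1%. Without those barcodes, Hox reads were found in 41.2% of MEF wells, 16.1% of Neuro2A wells, and 1.45%, 17.8% and 27.1% of wells of ES replicates 1, 2 and 3. The summed level was then 877 CPM in MEF, 125 CPM in Neuro2A, and 0.118, 211 and 121 CPM in the ES plates.

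**Figure D2:**
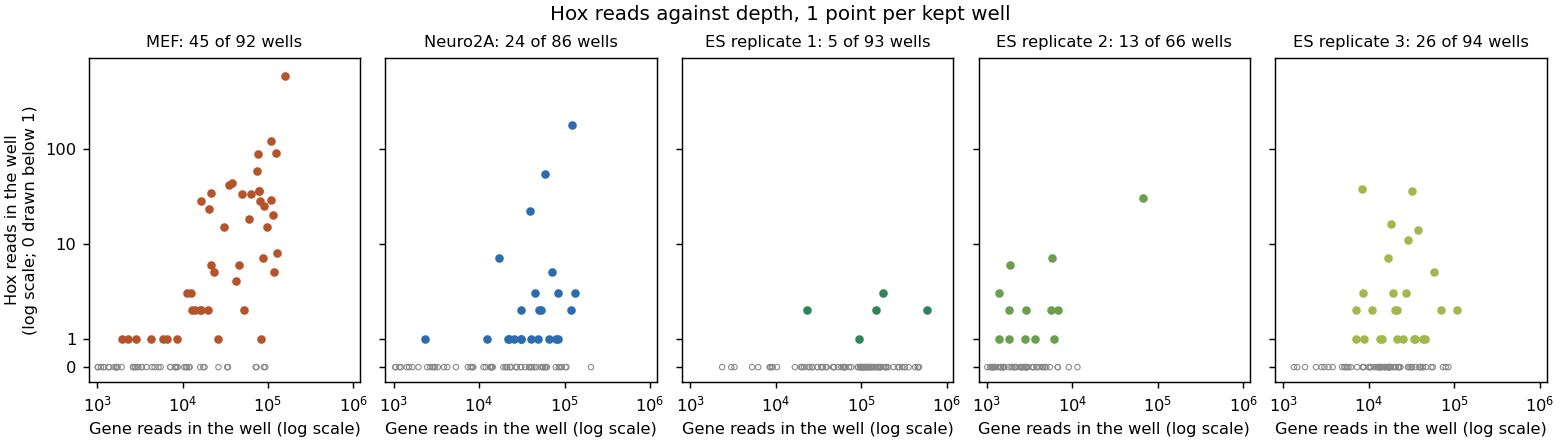
Hox reads in each kept well (log scale, wells with 0 drawn below 1) against gene reads in that well (log scale), 1 point per well, for MEF, Neuro2A and ES replicates 1, 2 and 3. Hox reads occur in 45 of 92 MEF wells and 5 of 93 wells of ES replicate 1, although the median kept well held 12749 reads in MEF and 101130 in ES replicate 1.

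A Hox gene was typically read in fewer wells than other genes on every plate. Of the 26 Hox genes read somewhere, 69.2% were read in MEF, 19.2% in Neuro2A, and 11.54%, 38.5% and 53.8% in ES replicates 1, 2 and 3. For all 15597 genes read somewhere the shares were 72.2%, 62.3%, 61.4%, 77.0% and 77.8%, so the Hox share was close to that of all genes in MEF and lower on the other 4 plates. A read Hox gene was found in a median of 4 MEF wells and 4 Neuro2A wells, against 9 and 12 wells for all read genes. In ES replicates 1, 2 and 3 the medians were 2, 1.5 and 2 wells, against 14, 4 and 14. Read Hox genes also had fewer reads, with medians of 25.5 in MEF and 30 in Neuro2A, against 68 and 98. What the lower read number adds to the difference in wells was not tested. One well held a median of 83.3% of a Hox gene's reads in MEF and 98.3% in Neuro2A, against 48.3% and 50% for all read genes. Fewer cells with a Hox transcript and fewer transcripts per cell cannot be told apart at this depth, since of 79 gene and well pairs in MEF 26 rested on 1 read, and of 28 in Neuro2A 16 did.

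All 4 clusters were read in MEF, with Hoxb first. Hoxb had 979 reads of 6 of its 10 genes in 26 wells (28.3%, 19.4 to 38.6%). Hoxd had 251 reads of 4 genes in 12 wells, Hoxa had 161 reads of 3 genes in 17 wells, and Hoxc had 68 reads of 5 genes in 6 wells. Reads fell on every paralog group but 5 and 11. The anterior groups 1 to 3 had 891 reads in 25 wells, the central groups 4 to 8 had 123 reads in 12 wells, and the posterior groups 9 to 13 had 445 reads in 22 wells.

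**Figure D3:**
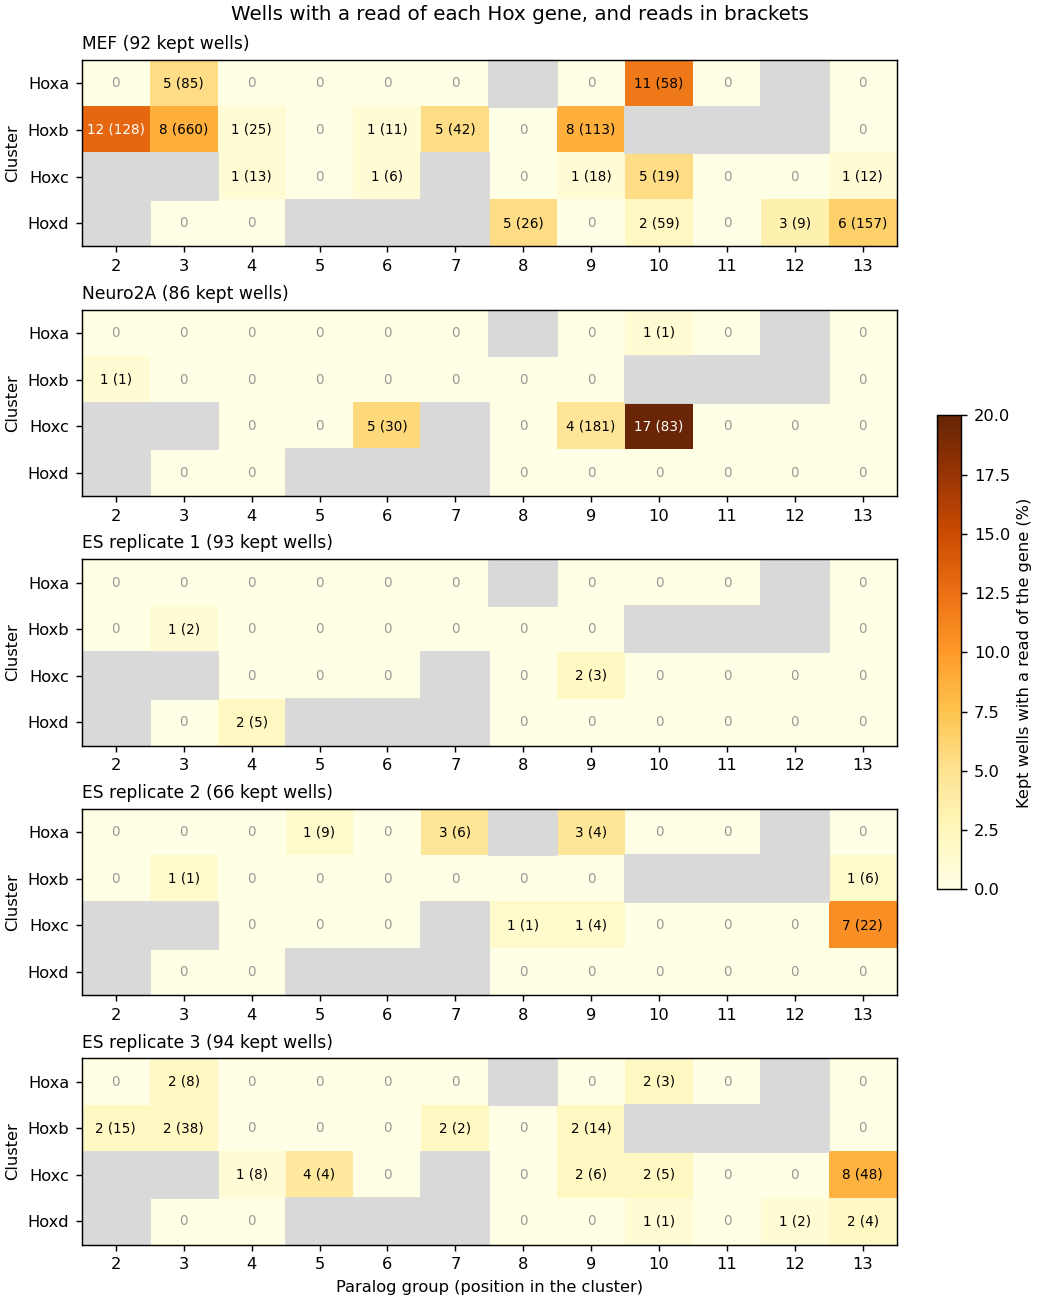
Percent of kept wells with a read (colour) for each cluster (rows) and paralog groups 2 to 13 (columns) on the 5 plates, with the number of wells and, in brackets, of reads. Grey squares mark positions with no gene in the mouse. MEF has reads in all 4 rows and in every column but 5 and 11, Neuro2A almost only at Hoxc6, Hoxc9 and Hoxc10, and ES replicate 1 has 10 reads.

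Among the anterior genes of MEF, Hoxb2, a hindbrain segment gene, was the Hox gene read in most wells. It had 128 MEF reads (64.7 CPM) in 12 wells, with 1 to 90 reads per well and a median of 3. It had 1 read in Neuro2A, and 0, 0 and 15 reads in ES replicates 1, 2 and 3. Hoxb3, its neighbour in the cluster, had 660 MEF reads (333 CPM) in 8 wells, with 2 to 578 reads per well and a median of 6. It had 0 reads in Neuro2A and 2, 1 and 38 in ES replicates 1, 2 and 3. Hoxb3 was thus read in every ES plate, and 87.6% of its MEF reads came from 1 well.

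Hoxa3, needed for the thymus, the parathyroid and other neck structures, had 85 MEF reads (42.9 CPM), at 1, 1, 5, 35 and 43 reads in 5 wells. It had 0 reads in Neuro2A and 0, 0 and 8 in ES replicates 1, 2 and 3. Hoxa3 and Hoxb3 belong to the same paralog group and their homeoboxes were 93.9% identical in coding bases, which made them the pair of paralogs with the highest identity. Hoxa3 was read in 5 and Hoxb3 in 8 of 92 MEF wells, and no well held reads of both. With so few wells, an overlap of 0 tells nothing about the pair.

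Central genes were sparse in MEF. Hoxb7, a trunk gene, had 42 MEF reads (21.2 CPM), at 1, 1, 1, 6 and 33 reads in 5 wells, 0 in Neuro2A and 0, 0 and 2 in the ES plates. Hoxd8, which acts in the trunk, had 26 MEF reads (13.1 CPM), at 1, 2, 2, 3 and 18 reads in 5 wells, and no read on any other plate. Against the mean 3-read floor of the ES plates, 3.44 CPM, Hoxd8 was at least 3.82-fold higher in MEF. The floor of ES replicate 2 alone was 8.71 CPM, so the bound against that plate is much lower. Hoxb4, Hoxc4, Hoxb6 and Hoxc6 were each read in 1 MEF well, with 25, 13, 11 and 6 reads.

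Posterior genes of all 4 clusters were read in MEF. Hoxa10, which patterns the lumbar spine, the upper hind limb and the uterus, had 58 MEF reads (29.3 CPM) in 11 wells, with 1 to 34 reads and a median of 2. It had 1 read in Neuro2A and 0, 0 and 3 in ES replicates 1, 2 and 3. Hoxb9, which acts in the thoracic spine, had 113 MEF reads (57.1 CPM) in 8 wells, with 1 to 94 reads and a median of 1, 0 reads in Neuro2A and 0, 0 and 14 in the ES plates. Hoxc10, a lumbar gene of motor neurons and hind limb, had 19 MEF reads (9.60 CPM), at 1, 2, 3, 4 and 9 reads in 5 wells. Hoxc9 and Hoxc13 were each read in 1 MEF well, with 18 and 12 reads.

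Hoxd13, which patterns the digits and the genital tubercle, was the most posterior gene read in several MEF wells. It had 157 MEF reads (79.3 CPM) in 6 wells, with 1 to 87 reads and a median of 13.5. It had 0 reads in Neuro2A and 0, 0 and 4 in ES replicates 1, 2 and 3. Its neighbour Hoxd12 had 9 MEF reads, at 2, 3 and 4 reads in 3 wells, 0 reads in Neuro2A and 0, 0 and 2 in the ES plates. Hoxd10, a lumbar and limb gene, had 59 MEF reads, at 1 and 58 reads in 2 wells, 0 reads in Neuro2A and 0, 0 and 1 in the ES plates. Of the 3 Hoxd12 wells, 2 also had Hoxd13 reads, and 1 well held all of Hoxd10, Hoxd12 and Hoxd13. All 3 Hoxd12 wells had barcodes ending in G.

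The 250 bases upstream of these 3 Hoxd genes are shown because the genes shared MEF wells and their start regions can be compared. They come from RefSeq (GRCm38.p6, plus strand), and capitals mark TATAAA and CCAAT searched on both strands, the first overlapping itself where it reads TTTATAAA. Hoxd13 lies at chr2:74667975-74668224, Hoxd12 at chr2:74674763-74675012 and Hoxd10 at chr2:74691641-74691890.
Hoxd13 upstream: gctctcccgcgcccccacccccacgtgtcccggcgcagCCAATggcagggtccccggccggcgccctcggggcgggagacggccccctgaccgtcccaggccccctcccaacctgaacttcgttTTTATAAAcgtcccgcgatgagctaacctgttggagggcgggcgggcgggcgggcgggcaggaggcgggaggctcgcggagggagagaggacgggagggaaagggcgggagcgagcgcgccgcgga
Hoxd12 upstream: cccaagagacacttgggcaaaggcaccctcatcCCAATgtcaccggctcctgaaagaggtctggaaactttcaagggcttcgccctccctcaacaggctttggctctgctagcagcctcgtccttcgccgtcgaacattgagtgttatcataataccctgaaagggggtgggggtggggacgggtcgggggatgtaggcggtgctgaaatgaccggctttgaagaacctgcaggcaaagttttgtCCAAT
Hoxd10 upstream: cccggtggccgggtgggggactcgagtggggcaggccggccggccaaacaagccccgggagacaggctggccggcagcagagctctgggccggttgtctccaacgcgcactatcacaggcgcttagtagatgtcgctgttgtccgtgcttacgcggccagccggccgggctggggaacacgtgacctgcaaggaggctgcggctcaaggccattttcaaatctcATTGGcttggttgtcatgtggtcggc
The windows held 31, 10 and 20 CpG dinucleotides for Hoxd13, Hoxd12 and Hoxd10, against a median of 12.5 over 24 windows of 22 Hox genes and of 6 over 32851 mouse promoters of the same length. Of those Hox windows, 4 held TATAAA and 14 held CCAAT, and over all promoters 12.4% and 33.8% did. The matches describe letters in the window only.

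MEF cells could carry reads of several Hox genes. Most of the MEF wells with reads of several Hox genes had barcodes ending in G, which marked 26.1% of all kept MEF wells. Of the 45 MEF wells with a Hox read, 15 had reads of at least 2 Hox genes, 8 of at least 3, and 1 well, also with such a barcode, had 7. That well held Hoxb2, Hoxb3, Hoxb9, Hoxc10, Hoxd10, Hoxd12 and Hoxd13 with 15 reads among them. Reads of at least 2 clusters were found in 13 wells. By position, 16 wells had anterior genes alone, 6 central genes alone and 12 posterior genes alone, and 8 wells had both anterior and posterior genes. Of the 34 pairs of genes of the same cluster read in MEF, 14 shared a well. Of the 111 pairs that differed in both cluster and paralog group 35 did, and of the 8 pairs of 1 paralog group 2 did. Hoxb2 and Hoxb9 shared 4 wells, the largest overlap within a cluster, against at most 3 wells for pairs that differed in both. Whether genes of a cluster share wells more often was not tested.

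**Figure D4:**
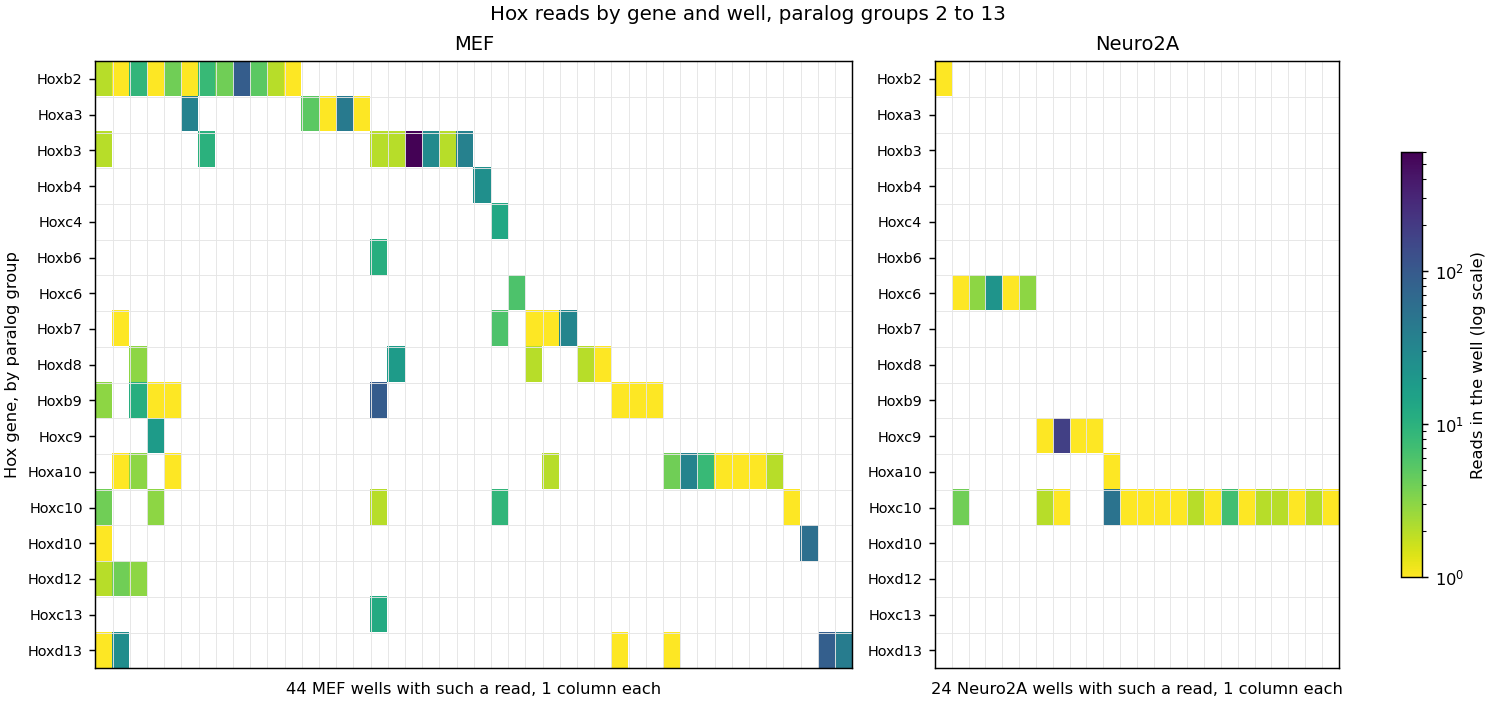
Reads (colour, log scale) of Hox genes of paralog groups 2 to 13, from top to bottom, in the 44 MEF wells (left) and 24 Neuro2A wells (right) that had such a read, 1 column per well, with blank squares for 0 reads. MEF reads run over the whole range shown and 14 wells hold several of these genes, whereas Neuro2A reads lie in the Hoxc6, Hoxc9 and Hoxc10 rows but for 2 reads.

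In Neuro2A the Hox reads were almost all from neighbouring genes of Hoxc. Hoxc took 294 of 296 reads (99.3%) in 23 wells (26.7%, 17.8 to 37.4%), Hoxa and Hoxb took 1 read each, and Hoxd took 0. A count of 0 in 86 wells allows a share of up to 3.49% of wells with a read at this depth, which is no limit on cells that express Hoxd. Along chromosome 15 the genes run from Hoxc13 to Hoxc4, and the 3 read genes were Hoxc10, Hoxc9 and Hoxc6. Hoxc8, which lies between Hoxc9 and Hoxc6, had 0 reads in Neuro2A.

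Hoxc10 was the most widely read Hox gene of Neuro2A. It had 83 Neuro2A reads (26.7 CPM) in 17 wells (19.8%, 11.96 to 29.8%), with 1 to 53 reads and a median of 1. Most of these wells had barcodes ending in G, which marked 27.9% of all kept Neuro2A wells. The 19.8% is therefore not read as the share of cells with Hoxc10. The ES plates had 0, 0 and 5 Hoxc10 reads, the last in 2 wells. Hoxc9, a thoracic gene of the trunk and its motor neurons, had 181 Neuro2A reads (58.3 CPM), at 1, 1, 1 and 178 reads in 4 wells, and 3, 4 and 6 reads in ES replicates 1, 2 and 3. Hoxc6, which acts at the level of the forelimb and thorax, had 30 Neuro2A reads (9.66 CPM), at 1, 1, 3, 3 and 22 reads in 5 wells, and 0 reads in every ES plate. It was at least 2.81-fold higher in Neuro2A than the mean ES floor and at least 39.8-fold higher than the floor of ES replicate 1. The floor of ES replicate 2 was 8.71 CPM, and 0 reads on that plate allow up to 10.7 CPM. No difference of Hoxc6 from ES replicate 2 is therefore shown. Reads of 2 Hox genes met in 4 Neuro2A wells, and Hoxc9 and Hoxc10 shared 2 of them.

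The homeoboxes of these 3 genes are shown because the genes hold nearly all Neuro2A Hox reads and their homeoboxes can be compared base by base. Each is 180 coding bases in the last exon, from GENCODE M21 (GRCm38, plus strand), and capitals mark the 93 bases shared by all 3. Hoxc6 lies at chr15:103010754-103010933, Hoxc9 at chr15:102983930-102984109 and Hoxc10 at chr15:102970848-102971027.
Hoxc6 homeobox: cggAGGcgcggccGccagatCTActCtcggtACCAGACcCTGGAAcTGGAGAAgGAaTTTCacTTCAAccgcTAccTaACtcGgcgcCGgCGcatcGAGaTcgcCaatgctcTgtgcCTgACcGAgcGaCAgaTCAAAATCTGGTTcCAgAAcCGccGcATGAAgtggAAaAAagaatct
Hoxc9 homeobox: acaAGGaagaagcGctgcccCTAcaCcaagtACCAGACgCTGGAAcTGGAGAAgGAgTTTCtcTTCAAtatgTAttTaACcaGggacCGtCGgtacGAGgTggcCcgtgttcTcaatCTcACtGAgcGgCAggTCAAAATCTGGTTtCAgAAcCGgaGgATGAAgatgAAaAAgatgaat
Hoxc10 homeobox: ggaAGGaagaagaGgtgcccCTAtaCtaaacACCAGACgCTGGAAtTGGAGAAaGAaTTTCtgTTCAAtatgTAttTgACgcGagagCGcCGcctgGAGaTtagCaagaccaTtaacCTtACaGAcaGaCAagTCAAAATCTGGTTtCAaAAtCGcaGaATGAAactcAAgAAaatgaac
Hoxc10 and Hoxc9 were identical at 71.7% of these bases, Hoxc6 and Hoxc9 at 66.7%, and Hoxc10 and Hoxc6 at 59.4%. Genes of 1 paralog group had a median identity of 80.6%, and other pairs had 60.6%. No positions of reads within genes are given. Whether any read fell in a homeobox, or was assigned to a paralog, therefore cannot be told.

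MEF and Neuro2A were compared without a test, because each filled 1 plate. The summed Hox level was 7.73-fold higher in MEF (6.82 to 8.79), or 5.31-fold by library size alone. Hoxc was the only cluster lower in MEF, at 34.3 CPM and 6 wells, against 94.6 CPM and 23 wells in Neuro2A, or 0.363 times by level (0.275 to 0.474). That ratio rested largely on 1 Neuro2A well: without the well richest in Hox reads on each plate it was 0.942, and without the well richest in Hoxc reads it was 0.620. Without the well richest in Hox reads the summed level was 12.001-fold higher in MEF. Those wells held 39.6% of the MEF Hox reads and 60.5% of the Neuro2A Hox reads.

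Part of the Hoxc reads of MEF lay at barcodes that also held the gene in Neuro2A. All 18 MEF reads of Hoxc9 were in the well with the barcode shown above, at which Neuro2A had 178 of its 181 Hoxc9 reads. Of the 5 MEF wells with Hoxc10, 3 matched Neuro2A barcodes, with 4 reads in MEF against 1 in Neuro2A, 3 against 1, and 2 against 53. In the first and second of these wells MEF thus held more Hoxc10 reads than Neuro2A. Genes outside Hox that were specific to Neuro2A had a median of 9.43% of their Neuro2A reads in MEF (134 genes), and 78.2% of those gene and well pairs in MEF lay at a barcode with the gene in Neuro2A. Over the barcodes of all kept MEF wells, Neuro2A held such a gene in 32.9% of cases. The MEF reads at the shared Hoxc9 barcode were 10.1% of those in Neuro2A. No other Hox gene of MEF matched Neuro2A in this way. With that share of the Neuro2A reads subtracted from every gene of MEF, the summed Hox level was 8.14-fold higher in MEF. The subtraction also shrank the MEF library, so the summed level rose from 737 to 776 CPM although it can only remove Hox reads.

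The ES plates were examined gene by gene as background. In ES replicate 1 the reads were 5 of Hoxd4 in 2 wells, 3 of Hoxc9 in 2 wells and 2 of Hoxb3 in 1 well. None of those wells shared its barcode with a read of the same gene on another plate. Hoxd4, a central gene of the upper spine, had no read on any other plate.

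ES replicate 2 had 10 Hox genes among its 59 Hox reads. It had 22 reads of Hoxc13 in 7 wells, 9 of Hoxa5 in 1 well, 6 of Hoxa7 in 3 wells, 6 of Hoxb13 in 1 well, 4 of Hoxa9 in 3 wells, and 4 of Hoxc9 in 1 well. Hoxb1 had 3 reads in 2 wells, and Hoxb3 and Hoxc8 had 1 read each. Hoxa5, Hoxa7, Hoxa9, Hoxb1, Hoxb13 and Hoxc8 were read on no other plate. One well, which held 25.9% of the plate's gene reads, had 30 of the 59 Hox reads and 8 of the 10 genes, and without it the plate had 6 Hox genes. Repeats took 82.4% of the reads of this plate, against 23.02 to 39.99% on the others, and it also had reads of 4 of 12 macrophage markers, at 61.0 CPM in 6 wells, and 113 CPM of endothelial markers. ES replicate 3 had 2 of the macrophage markers, at 21.9 CPM in 11 wells, and ES replicate 1 and MEF had 0 reads of them. Endothelial markers summed to 54.5 CPM in MEF, 1.29 CPM in Neuro2A, and 1.29 and 22.4 CPM in ES replicates 1 and 3. Their part in the Hox reads was not tested.

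In ES replicate 3 most Hox genes lay at barcodes where MEF held the same gene. Of 33 gene and well pairs, 18 did (54.5%), with 102 of 158 reads and 11 of 14 genes, while a MEF well held a read of the gene in 4.48% of cases on average. At those barcodes ES replicate 3 had 8.70% of the MEF reads. By gene the share ran from 1.72% for Hoxd10 to 61.5% for Hoxc4, and Hoxb3 alone gave 38 reads against 606 in MEF. Genes outside Hox that were specific to MEF had a median of 10.9% of their MEF reads in ES replicate 3 (198 genes). That median is taken over all wells, so it is not the same measure as the 8.70%. With that share subtracted, 10 Hox genes and 41.4 CPM remained in ES replicate 3. Of the gene and well pairs of the 198 genes in ES replicate 3, 90.7% lay at a barcode with the gene in MEF. Over the barcodes of all kept wells of ES replicate 3, MEF held such a gene in 42.4% of cases.

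Hoxc13 stood apart in this pattern. This gene of hair and nails was the Hox gene with most ES wells, at 0, 7 and 8 wells and 0, 22 and 48 reads in ES replicates 1, 2 and 3, a level of 28.6 ± 32.4 CPM (SD, n = 3). MEF had 12 Hoxc13 reads in 1 well and Neuro2A had 0. None of the 8 wells of ES replicate 3 shared its barcode with a Hoxc13 read in MEF, Neuro2A or ES replicate 2. Its reads in ES replicate 3 were 38 in 1 well and 1 to 3 in the other 7. The remaining pairs of ES replicate 3 without a match in MEF or Neuro2A were of Hoxc5, with 1 read in each of 4 wells, Hoxb9 and Hoxd12, 7 reads in all. A further pair, with 1 read of Hoxc9, matched Neuro2A but not MEF.

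**Figure D5:**
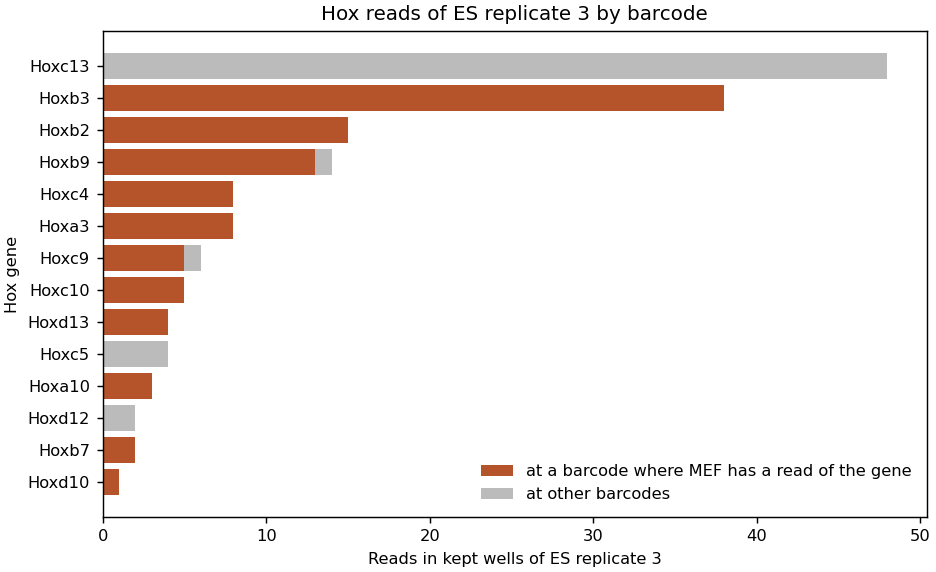
Reads of each Hox gene in the kept wells of ES replicate 3, split into those at a barcode where MEF also has a read of the gene (brown) and those at other barcodes (grey). Of 158 reads 102 are brown, and 48 of the 56 grey reads are of Hoxc13.

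The comparison of each cell type with ES was tested with edgeR's quasi-likelihood test on plate sums. Of the 39 Hox genes, 16 passed the filter on low counts, which a gene can pass through the plate where it is high, so their counts and medians are given as description. With MEF against ES, 0 of 16 tested Hox genes passed at an adjusted p of 0.05, and so did 0% of all 12271 genes tested (0 called). At an unadjusted p under 0.05, 2 Hox genes were higher in MEF, where 4.17% of all genes were, and 1028 genes passed in either direction. These were Hoxb3, with a log2 fold change of 5.56 ± 1.90 (SE, edgeR adjusted p = 0.548), and Hoxd13, with 6.80 ± 2.76 (SE, edgeR adjusted p = 0.589). The median fitted log2 fold change was 5.27 over the Hox genes and 0.08 over all genes. With values under the 3-read floor set to it, the medians were 2.28 and -0.02. The fitted value was positive for 15 Hox genes and negative for 1, Hoxc13. With the floor, 14 were higher and 2 lower, Hoxc13 and Hoxc6. Hoxc6 had 3.03 CPM in MEF, under the mean ES floor of 3.44 CPM.

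With Neuro2A against ES, 0 of 16 tested Hox genes passed, and so did 0% of all genes tested (0 called). At an unadjusted p under 0.05, 0 Hox genes were higher in Neuro2A, where 4.05% of all genes were, and 1525 genes passed in either direction. Hoxc9 had a log2 fold change of 3.75 ± 2.32 (adjusted p = 0.524, edgeR), and Hoxc10 had 4.93 ± 3.15 (adjusted p = 0.528, edgeR). Of the 16 fitted log2 fold changes, 3 were positive, 11 were negative, and 2 were 0, those of Hoxb4 and Hoxd8, which had 0 reads in Neuro2A and in every ES plate. No median is given, since 11 of the 16 genes had 0 reads in Neuro2A. DESeq2 called 481 genes with MEF against ES and 1240 with Neuro2A against ES, and 0 Hox genes in either.

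The counts of the main edgeR fit changed when ES replicate 1 was left out. The spread then came from ES replicates 2 and 3 alone, so the values of that fit rest on how far these plates differ. Without it, 645 genes passed with MEF against ES and 1438 with Neuro2A against ES. Hoxb3 then passed as higher in MEF (log2 fold change 4.81, adjusted p = 0.00371, edgeR), and Hoxb3 (adjusted p = 0.00870, edgeR) and Hoxc13 (adjusted p = 0.0361, edgeR) passed as lower in Neuro2A. Both genes had reads in ES replicate 3, where those of Hoxb3 lay at MEF barcodes. The biological coefficient of variation was 122% with all plates, from 2 residual degrees of freedom. At that spread the tests had little power. The 12 tested ES markers did not pass in the main fit either. Their median log2 fold changes were -12.2 with MEF against ES and -13.4 with Neuro2A against ES. A gene that did not pass is therefore not shown to be unchanged.

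Partners of the Hox proteins were read on all plates. Pbx proteins, which bind DNA beside Hox proteins, summed to 352 CPM in MEF, 295 CPM in Neuro2A, and 35.5, 55.2 and 122 CPM in ES replicates 1, 2 and 3. Pbx3 was highest in Neuro2A, at 164 CPM in 8 wells, against 35.1, 0 and 5.94 CPM in the ES plates. Of 3 tested Pbx genes, 0 passed in either comparison.

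The partners that join Pbx differed between plates. Meis1 had 12.6 CPM in 7 MEF wells and 79.8 CPM in 27 Neuro2A wells, against 0, 0 and 1.37 CPM in ES replicates 1, 2 and 3. The 25 MEF reads of Meis1 were 10.1% of its 248 Neuro2A reads, near the 9.43% found for genes specific to Neuro2A, and 5 of its 7 MEF wells matched a Neuro2A barcode with the gene. Of 86 kept Neuro2A wells, 27 held Meis1. Pknox1 (Prep1) had 0 reads in MEF and 0.966 CPM in Neuro2A, against 78.0, 81.3 and 54.4 CPM in the ES plates. Gmnn, whose protein geminin restrains replication and can bind Hox proteins, had 8.08 CPM in MEF and 29.6 CPM in Neuro2A, against 90.5, 75.5 and 169 CPM in the ES plates. Of Meis1, Pknox1 and Gmnn, 0 passed the test over all genes.

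Genes that act upstream of the clusters, the Cdx factors and retinoic acid receptors and enzymes, summed to 205 CPM in MEF and 6.44 CPM in Neuro2A, against 101, 98.7 and 158 CPM in the ES plates. Rarg, a retinoic acid receptor, had 5.05 CPM in MEF and 0 reads in Neuro2A, against 33.1, 34.8 and 69.5 CPM in ES replicates 1, 2 and 3. Rxra, its dimer partner, had 42.4 CPM in MEF and 0 reads in Neuro2A, against 20.5, 37.7 and 15.1 CPM. Of 8 tested genes of the list, 0 passed in either comparison.

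Patterning genes outside the clusters also differed in level between plates. Limb and mesenchyme genes of this kind summed to 2318 CPM in MEF and 96.9 CPM in Neuro2A, against 120, 491 and 556 CPM in ES replicates 1, 2 and 3. Sympathoadrenal ones summed to 191 CPM in MEF and 921 CPM in Neuro2A, against 0.162, 31.9 and 46.2 CPM in the ES plates. Their 379 MEF reads were 13.3% of the 2860 in Neuro2A, and 58 of 67 gene and well pairs in MEF matched a Neuro2A barcode with the gene. Prrx1, a limb mesenchyme homeobox gene, had 1130 CPM in 45 MEF wells and 0 reads in Neuro2A, against 0, 0 and 94.6 CPM in the ES plates. Its 207 reads in ES replicate 3 were 9.25% of the 2238 in MEF, and 16 of its 17 wells there matched a MEF barcode with the gene. Of 92 kept MEF wells, 45 held Prrx1. Prrx1 meets the rule for genes specific to MEF, so its share is itself part of the 10.9% median found for them. Of 29 genes beside the clusters and RNAs within them, 14 had reads, and they summed to 1503 CPM in MEF and 1257 CPM in Neuro2A, against 1484, 1016 and 1254 CPM in ES replicates 1, 2 and 3. Cbx5, beside Hoxc, had 604 CPM in MEF and 161 CPM in Neuro2A, against 210, 244 and 395 CPM. Of 12 tested neighbours, 12 tested limb genes and 5 tested sympathoadrenal genes, 0 passed with either cell type against ES.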

How the data were processed

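Per the labels' protocols, single cells were sorted into 96-well plates, and the helper oligo for template switching gave each well its barcode before the wells of a plate were pooled and amplified for 25 PCR cycles or more. Raw read counts per gene and barcode, as deposited by the authors, were used as they are, with 1 file per plate. Per the submitters' processing notes Bowtie was used. Neither its version nor a genome build or annotation is given in the sources used here.

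Repeats and mitochondrial genes, told by their names, counted neither towards library sizes nor in tests. Of 480 wells, the 431 that reached 1000 gene reads were kept (the design counts 436 cells), and counts were summed per plate, because cells of a plate are not replicates. Kept gene reads numbered 2930884 in MEF, 3155092 in Neuro2A, and 11432543, 262517 and 2134248 in ES replicates 1, 2 and 3. The 5 sums entered 1 quasi-likelihood fit per gene in edgeR 4.0.16 under R 4.3.3 (TMM, filterByExpr, glmQLFTest between group means, Benjamini-Hochberg adjustment at 0.05 over all genes), with DESeq2 1.42.0 as an alternative on the genes that passed the filter. The script was tested on simulated data. MEF and Neuro2A filled 1 plate each, so they were compared by ratio, with an exact binomial counting interval. Shares of wells have exact 95% binomial intervals, and a share of 0 has a limit of 3 wells of the total. Folds against 0 reads use a floor of 3 reads per library. Thinned shares are hypergeometric expectations.

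Reads carried between plates were estimated on genes outside Hox with at least 100 CPM in the source plate and at least 10 times the CPM of each plate other than source and target. The members and the gene lists were chosen with earlier results of these data known. Genes named in full are the 12 read in most MEF wells, the 6 read in most Neuro2A wells (5 had reads) and every one read in ES replicates 1 or 2, with up to 4 per context list by summed reads. Some genes that met these rules are not reported here. Sequences are from RefSeq and GENCODE M21, and homeoboxes were located by translation. Promoter windows were matched for 22 Hox genes. Tables and figures were made with pandas 2.3.3, scipy 1.17.1 and matplotlib 3.10.9 in python 3.11.15.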

Additional observations from a re-analysis of the deposited data

How the results depend on the processing

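With the genes left unfiltered, edgeR called 9 genes with MEF against ES and 82 with Neuro2A against ES, and DESeq2 called 481 and 1240, with 0 Hox genes in all of these. With 1 ES plate left out in turn, 0 to 645 and 0 to 1438 genes were called, and 0 to 1 and 0 to 2 Hox genes, the upper values without ES replicate 1. Other scalings, well filters and subtractions left all these counts at 0. No paired analysis was possible because MEF and Neuro2A have 1 plate each.

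Asking for 2 reads in a well gave 37.0%, 13.95%, 9.09% and 14.9% of wells in MEF, Neuro2A and ES replicates 2 and 3, and 5 reads gave 26.1%, 4.65%, 4.55% and 7.45%, with 0% in ES replicate 1. Thinning to 1000 reads gave 15.7%, 3.83%, 0.137%, 10.8% and 5.49%, and to 5000 reads 10.6% in Neuro2A and 0.666%, 46.4% and 16.1% in ES replicates 1, 2 and 3. Without barcodes ending in G, Neuro2A had 16.1% and ES replicate 1 had 1.45%, with 1 gene. Genes read fell to 3 in Neuro2A at 2 or 5 reads, and at 5 reads to 0, 3 and 7 in ES replicates 1, 2 and 3. Without the well richest in Hox reads ES replicate 2 had 6 genes. MEF against Neuro2A was 12.001-fold without those wells and 5.31-fold by library size alone, an alternative chosen after seeing the data. The cause was not tested in any of these. The fitted log2 fold change of Hoxb3 with MEF against ES ran from 4.73 to 9.99 over 13 alternatives, and that of Hoxd13 from 5.68 to 11.3.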
